A study of Mus musculus with 28 samples.

Results

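GABA-A receptors are the chloride channels that carry most fast inhibition in the brain, and 7 of their subunit genes were followed across the hippocampi of aged mice given human plasma. The genes were Gabra2, Gabra3, Gabra4 and Gabra5 (α subunits), Gabrb1 and Gabrb2 (β subunits) and Gabrd (the δ subunit). They were chosen by symbol, not by a cut on their values, though earlier results of these data were known. Each had 1 row among the 22256 gene symbols of the array. All 7 were among the 15781 genes tested, those whose mean log2 value was at least 4.68, the 30th percentile of named rows. Every array came from hippocampal tissue of the NSG strain, an immunodeficient mouse without mature lymphocytes, at a mean age of 14 months. The groups had been given 6 intravenous injections of PBS (phosphate-buffered saline, the vehicle), of cord plasma, of young plasma or of old plasma, all plasma being human. Each group had 7 arrays, 28 in all. Whether the 7 arrays of a group stand for 7 animals is not said in the labels; the p-values describe the spread among the arrays, some of which may be technical. The comparisons asked whether plasma, and the age of its donors, moved the levels of these subunits.

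The receptor is a pentamer around an anion pore, usually built from α and β subunits with a γ or a δ subunit, and GABA binds where β meets α. The α subunit sets much of the channel's pharmacology and place in the cell. Receptors with α2 or α3 and a γ subunit sit largely at synapses and respond to benzodiazepines. Those with α5 are abundant outside synapses on hippocampal pyramidal cells, and those with α4 and δ lie outside synapses on dentate granule cells. The last 2 kinds carry tonic inhibition, and the δ kind is strongly enhanced by neurosteroids.

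Of the genes that code for such subunits, 4 lie together on mouse chromosome 5 in the order Gabrg1, Gabra2, Gabra4 and Gabrb1, with Cox7b2 between Gabra2 and Gabra4. Of the other members, Gabra5 is on chromosome 7, Gabrb2 on chromosome 11, Gabrd on chromosome 4 and Gabra3 on chromosome X. Promoter sequence was taken from RefSeq on GRCm38.p6 and matched 6 of the 7 members by symbol, Gabrd being the exception. The promoters of Gabra2, Gabra5 and Gabrb1 are shown because these genes varied together across arrays, as described further on. Each run is the 250 bases before a start of transcription, 5′ to 3′ on the gene's own strand, and capitals mark the match to a searched motif.
Gabra2 (chr5:71095850-71096099, minus strand): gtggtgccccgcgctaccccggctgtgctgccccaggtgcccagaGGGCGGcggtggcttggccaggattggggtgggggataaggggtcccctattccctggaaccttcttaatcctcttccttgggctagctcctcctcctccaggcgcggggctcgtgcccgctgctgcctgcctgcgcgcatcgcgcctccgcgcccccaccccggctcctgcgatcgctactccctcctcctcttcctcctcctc
Gabra5 (chr7:57510060-57510309, minus strand): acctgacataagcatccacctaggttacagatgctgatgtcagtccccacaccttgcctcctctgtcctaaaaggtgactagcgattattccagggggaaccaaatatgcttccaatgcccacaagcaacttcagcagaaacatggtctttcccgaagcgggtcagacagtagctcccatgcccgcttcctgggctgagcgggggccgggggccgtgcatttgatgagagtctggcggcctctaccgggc
Gabrb1, the second of its starts (chr5:71699682-71699931, plus strand): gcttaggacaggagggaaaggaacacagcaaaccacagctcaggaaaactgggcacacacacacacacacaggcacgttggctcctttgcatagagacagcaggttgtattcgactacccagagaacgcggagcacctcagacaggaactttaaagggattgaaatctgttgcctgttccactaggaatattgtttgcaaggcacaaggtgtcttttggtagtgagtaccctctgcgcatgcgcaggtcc
The motifs searched on both strands were the GC box GGGCGG, the TATA box TATAAA, the cyclic AMP response motif TGACG and the E-box CAGCTG. The Gabra2 window held 1 GC box, 205 bases before the start, and 32.9% of all promoter windows of that length in the RefSeq table held one. No searched motif occurred in the Gabra5 or Gabrb1 windows shown. The GC content was 70% for Gabra2, 56.4% for Gabra5 and 50.8% for Gabrb1 at the start shown, beside a median of 52% over the promoters of 27018 genes. Gabra4 and Gabrb1 are on opposite strands, and their first starts lie 387 bases apart. The first Gabrb1 start is inside the transcribed part of Gabra4, so the genes are transcribed across each other over those bases. The 250 bases before the first Gabrb1 start, with a GC content of 64.4%, lie inside the transcribed part of Gabra4 and are not shown.

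The arrays as a whole were alike. Array medians lay between 4.96 and 5.09 on the log2 scale, and 2 arrays correlated across genes at 0.976 to 0.995. Prox1 of dentate granule cells averaged 8.68 and Wfs1 of CA1 pyramidal cells 9.91. Bok of CA2 and CA3 pyramidal cells was at 8.18, and Tdo2 of the granule list stayed below the filter at 4.63. Markers of neighbouring tissue reached such levels too, among them Fezf2 of cortex at 8.96 and Ntng1 of thalamus at 8.61. Levels of different genes are not comparable, so these values do not test the tissue label. Some arrays stood apart in markers of neighbouring tissue. The mean of 9 thalamus markers was 8.05 in PBS replicate 6 and at most 7.17 in every other array. The mean of 8 choroid plexus markers split the arrays into 15 at 6.35 to 7.07 and 13 at 8.14 to 9.17, with 3 or 4 arrays of every group on each side. The mean of 9 cortex markers was 7.38 ± 0.071 (SD, n = 7) with PBS, 7.49 ± 0.18 with cord plasma, 7.68 ± 0.17 with young plasma and 7.59 ± 0.19 with old plasma. Every young plasma array, from 7.506 up, lay above every PBS array, up to 7.496. Taken singly, 0.215% of all genes had groups that did not overlap in this comparison, a share not taken over means of 9 genes. All 9 cortex markers were on the higher side with each plasma, and none passed the adjusted test. With cord, young and old plasma, 1, 6 and 3 of them had an unadjusted limma p under 0.05. The shares of all genes were 8.74%, 11.2% and 10.8%. The median difference of the cortex markers from PBS was 0.052 with cord plasma, 0.28 with young plasma and 0.17 with old plasma. In bulk tissue, fewer cells of a type and less RNA per cell cannot be told apart.

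Levels are given on the log2 intensity scale, where a difference of 1 is a doubling, and levels of different genes are not comparable because their probes differ. Gabra2 ran from 10.78 through a median of 10.98 to 11.15 with PBS, and from 10.82 through 11.03 to 11.17 with cord plasma. With young plasma it ran from 10.75 through 10.92 to 11.16, and with old plasma from 10.78 through 11.003 to 11.17. The 4 ranges nearly coincided, and the order of means (cord plasma, PBS, old plasma, young plasma) spanned 0.087, less than the within-group SD of 0.135. Gabra5, the other α subunit with a range of this kind, lay at 11.03, 11.28 and 11.38 (lowest, median, highest) with PBS and at 11.02, 11.24 and 11.40 with cord plasma. It lay at 10.92, 11.15 and 11.33 with young plasma and at 10.97, 11.15 and 11.36 with old plasma. Means were 11.24 ± 0.12 with PBS and with cord plasma (SD, n = 7), 11.17 ± 0.16 with old plasma and 11.14 ± 0.13 with young plasma, and no neighbours in that order differed beyond their spread.

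Gabra3, whose subunit is typical of monoaminergic and other brain stem and cortical neurons, was the most variable of the 7. Its lowest, median and highest values were 8.56, 9.21 and 9.42 with PBS, 8.64, 9.18 and 9.34 with cord plasma, 9.10, 9.33 and 9.42 with young plasma, and 8.99, 9.27 and 9.50 with old plasma. PBS replicate 1 and cord plasma replicate 3 were the lowest arrays, and the groups overlapped throughout. The pooled SD within groups was 0.221, above that of 92.6% of tested genes. Gabra4 was among the steadiest, with an SD of 0.0706, at the 8.30th percentile. It ran from 9.80 through 9.88 to 10.06 with PBS, from 9.74 through 9.87 to 9.92 with cord plasma, from 9.71 through 9.89 to 9.94 with young plasma and from 9.73 through 9.83 to 9.88 with old plasma. All 7 old plasma arrays lay below the PBS median of 9.88, and 3 lay below every PBS array.

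The β subunits form the GABA site together with the α subunits and are required for the receptor to reach the membrane. Gabrb1 ran from 9.74 through 9.89 to 10.07 with PBS, from 9.57 through 9.85 to 10.01 with cord plasma, from 9.56 through 9.73 to 9.86 with young plasma and from 9.58 through 9.76 to 9.998 with old plasma. All 7 young plasma arrays lay under the PBS median, 4 of them under every PBS array. In the order of means, PBS (9.91 ± 0.13, SD, n = 7), cord plasma (9.80 ± 0.16), old plasma (9.76 ± 0.14) and young plasma (9.72 ± 0.10), each step to the next was smaller than the spread. Between the ends, the difference of young plasma from PBS, -0.19, was larger in size than the pooled SD within groups, 0.133. Gabrb2 was the steadiest member, with an SD of 0.0655, at the 5.67th percentile. Its group means were 9.86 ± 0.067 with PBS, 9.88 ± 0.043 with cord plasma, 9.84 ± 0.056 with young plasma and 9.84 ± 0.088 with old plasma, and all 28 arrays lay between 9.69 and 9.98.

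Gabrd, the δ subunit of extrasynaptic receptors, ran from 6.40 through 6.50 to 6.99 with PBS and from 6.42 through 6.57 to 6.93 with cord plasma. It ran from 6.56 through 6.64 to 7.02 with young plasma and from 6.52 through 6.67 to 6.96 with old plasma. Every young and every old plasma array lay above the PBS median. The groups overlapped: PBS replicate 6, the array highest in thalamus markers, reached 6.99, and PBS replicates 1 and 7, at 6.63 and 6.59, also lay above the lowest young and old plasma arrays. Its SD of 0.181 was at the 83.7th percentile of tested genes.

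**Figure D1:**
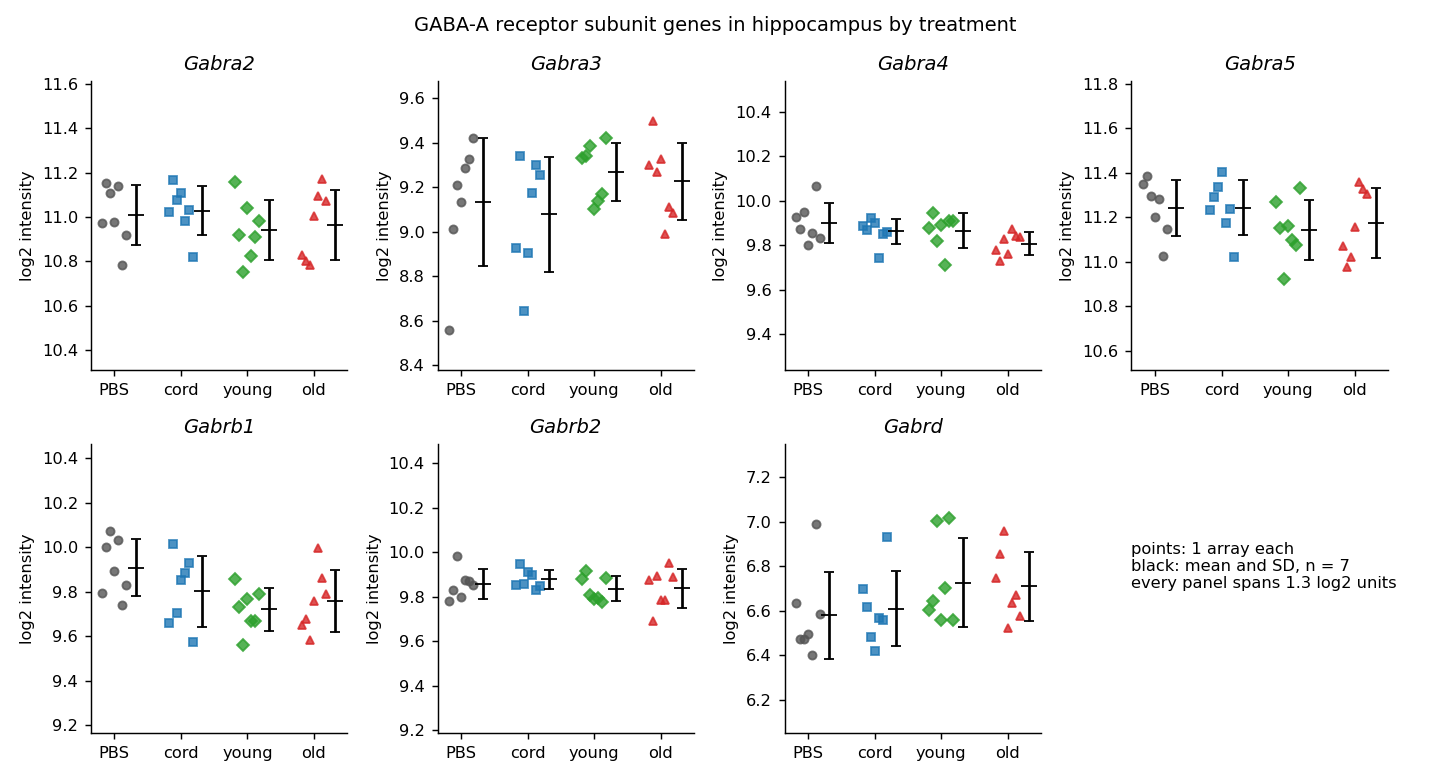
Log2 intensity of each of the 7 subunit genes (y axes, separate scales) by treatment group (x axes), with a point for each array and the group mean with its SD, n = 7. The groups overlap for every gene; the lowest Gabrb1 means and the highest Gabrd means are those of young and old plasma.

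Each plasma was then compared with PBS by limma, fitted over all 28 arrays with p-values adjusted by Benjamini-Hochberg over the 15781 genes. No member passed an adjusted p of 0.05 in any of the 7 comparisons or in the F-test over the groups. The background was as low: 0% of all genes passed against PBS with cord, young or old plasma, 0.019% for the mean of the plasma groups, and 0.00634% in the F-test. Between plasma groups 0.00634% passed for young against old plasma and 0% for the other pairs. No member had groups that did not overlap, beside 0.196%, 0.215% and 0.323% of all genes with cord, young and old plasma. For cord against old, young against old and cord against young plasma the shares of all genes without overlap were 0.076%, 0.0951% and 0.0824%. The comparisons with PBS share the PBS arrays, and those between plasma groups share plasma arrays. Their values are therefore given side by side only.

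With cord plasma the members stayed close to PBS. Differences on the log2 scale ran from -0.11 for Gabrb1 to 0.030 for Gabrd, 3 below 0 (beside 46.7% of all genes) and 4 above, with a median of 0.00074 beside 0.0061 over all genes. None had an unadjusted p under 0.05, beside 8.74% of all genes. The 95% intervals of the 7 differences lay within -0.29 and 0.22. Gabra5 was nearest to 0, at 0.00074 (SE 0.071).

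With young plasma Gabrb1 was at 9.72 and with PBS at 9.91, a difference of -0.19 (SE 0.070), or 0.878 of the PBS level. Its limma p was 0.0115, and its adjusted p 0.322. It was the only member with an unadjusted p under 0.05, beside 11.2% of all genes, or 5.11% in the lower direction. The next in size were Gabrd at 0.15 (SE 0.092, adjusted p 0.558), Gabra3 at 0.13 (SE 0.11) and Gabra5 at -0.099 (SE 0.071). Of the 7 differences, 5 were below 0, beside 50.8% of all genes, and their median was -0.034. The intervals of the members lay within -0.33 and 0.36.

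With old plasma 2 members had an unadjusted p under 0.05, beside 10.8% of all genes, or 4.15% in the lower direction. Gabra4 differed by -0.094 (SE 0.042, limma p 0.0327, adjusted p 0.404) and Gabrb1 by -0.15 (SE 0.070, limma p 0.0410, adjusted p 0.434). Without PBS replicate 6, the highest Gabra4 array, the Gabra4 difference was -0.067 with an unadjusted limma p of 0.108. With each array centred on its median the values were -0.057 for Gabra4 and -0.11 for Gabrb1 (unadjusted limma p 0.220 and 0.143). Gabrd was at 0.13 (SE 0.092) and the other 4 members between -0.069 and 0.091. Of the 7 differences, 5 were below 0, beside 47.5% of all genes. Their median was -0.044, and the intervals lay within -0.29 and 0.32.

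Over the mean of the plasma groups, Gabrb1 differed from PBS by -0.15 (SE 0.057, limma p 0.0147, adjusted p 0.278). It was 1 member of 7 with an unadjusted p under 0.05, beside 12.4% of all genes. In the F-test over the 4 groups no member had an unadjusted p under 0.05, beside 9.83% of all genes, and the smallest was 0.0635 for Gabrb1 (limma, adjusted p 0.531). In the authors' deposited table the unadjusted p-values for Gabrb1 were 0.195 with cord plasma, 0.00923 with young plasma and 0.0593 with old plasma.

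Plasma groups were also set against each other, which bears on the age of the donors. No member had an unadjusted limma p under 0.05 in any of the 3 pairs, beside 4.2% of all genes for cord against old plasma, 6.53% for young against old and 7.22% for cord against young. The largest difference was that of Gabra3, at -0.19 with cord relative to young plasma (SE 0.11, p 0.0973, adjusted p 0.715 by limma). Young and old plasma differed by -0.039 to 0.060 over the members, with intervals within -0.19 and 0.27.

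**Figure D2:**
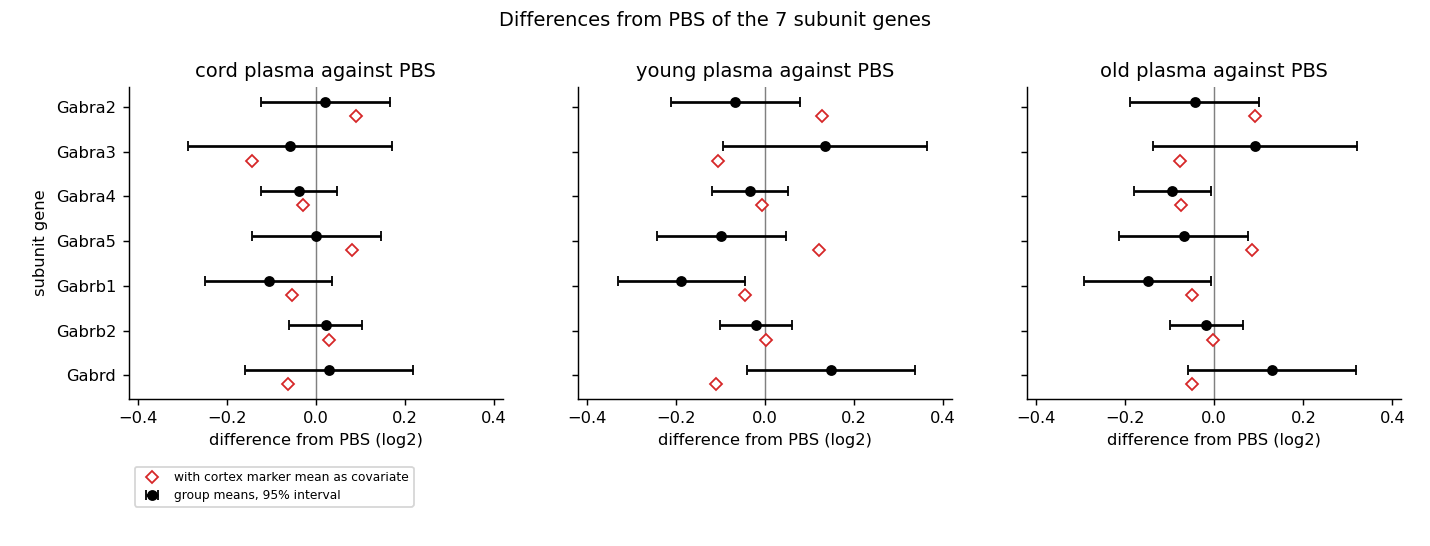
Differences from PBS on the log2 scale (x axes) for the 7 subunit genes (y axis) in the 3 plasma groups. Black points are differences of group means with 95% intervals from limma, and red diamonds the same differences with the cortex marker mean as a covariate; the intervals of Gabrb1 with young plasma, and of Gabra4 and Gabrb1 with old plasma, leave out 0, and no adjusted p was under 0.05.

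The cortex marker mean lay higher in the young plasma arrays than in all PBS arrays, so the fit was repeated with their mean per array as a covariate. With young plasma the Gabrb1 difference was then -0.045 (limma p 0.542, adjusted p 0.873), and with old plasma -0.049. Of the members, 4 took the other sign with young plasma: Gabra2 was at 0.13, Gabra3 at -0.11, Gabra5 at 0.12 and Gabrd at -0.11. Gabrb2 also crossed 0, to 0.0019. No member passed the adjusted test in this fit either. The covariate and the young plasma group separate the same arrays from PBS, so their parts in these differences cannot be told apart.

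The members also varied together from array to array within the groups. To describe this, each group's mean was removed from each gene, and the deviations of the 28 arrays were correlated for all 21 pairs of members, with two-sided permutation tests of 100000 shuffles within groups and Benjamini-Hochberg adjustment over the 21 pairs. The smallest p this test can give is 1e-05. An adjusted p under 0.05 was reached by 7 pairs, 3 of them positive and 4 negative. The share of all gene pairs that would pass was not computed, so this count is not shown to be particular to these genes.

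Gabra2, Gabra5 and Gabrb1 rose and fell together. Gabra2 and Gabra5, the synaptic and the mainly extrasynaptic α subunit, correlated at r = 0.88 (rho = 0.86, permutation p 2e-05, adjusted 0.000105). Without the 2 arrays farthest from the Gabra2 median the value was 0.86, and within the 4 groups it ran from 0.79 to 0.96. Of all tested genes, 0.038% had a higher r with Gabra2 than Gabra5 did, and 0.16% a higher r with Gabra5 than Gabra2 did. The share with a higher r with Gabra5 than Gabrb1 had was 2.03%. Gabra2 and Gabrb1, which share the chromosome 5 cluster, correlated at r = 0.83 (rho = 0.83, permutation p 1e-05, adjusted 0.000105), and at 0.80 without 2 arrays. Gabra5 and Gabrb1, on different chromosomes, correlated at r = 0.70 (rho = 0.69, permutation p 5e-05, adjusted 0.00021), and at 0.62 without 2 arrays. Their r within groups was 0.62 with PBS, 0.46 with cord plasma and 0.92 with young plasma and 0.89 with old plasma.

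Gabrd ran opposite to all 3 of these genes. Its r was -0.76 with Gabra2 (rho = -0.71, permutation p 2e-05, adjusted 0.000105), -0.77 with Gabra5 (rho = -0.70, permutation p 2e-05, adjusted 0.000105) and -0.69 with Gabrb1 (rho = -0.62, permutation p 6e-05, adjusted 0.00021). Without the 2 arrays farthest from the median of Gabra2, Gabra5 and Gabrb1 in turn, these values were -0.72, -0.69 and -0.65. The same arrays made both ends: PBS replicate 6, cord plasma replicate 7, young plasma replicate 3 and old plasma replicate 3 held the lowest Gabra2 of their groups. Gabrd in these arrays was 6.99, 6.93, 7.002 and 6.96, and every other array but young plasma replicate 6, at 7.02, was at 6.86 or less. The remaining pair that passed was Gabra3 with Gabra5, at r = -0.51 (rho = -0.51, permutation p 0.0068, adjusted 0.0204). It was -0.51 without 2 arrays, and within groups it ran from -0.92 to 0.21, positive with young plasma. Of all tested genes, 95.6% had a higher r with Gabra5 than Gabra3 did.

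No pair with Gabra4 or Gabrb2 passed by r. Over the 14 pairs that did not pass, r lay between -0.28 and 0.36 and the smallest adjusted permutation p was 0.206. By rank, however, Gabra4 with Gabra5 did pass: its r was 0.25 (permutation p 0.212, adjusted 0.342), its rho 0.46 (permutation p 0.0188, adjusted 0.0494), and its r without 2 arrays, PBS replicate 6 among them, 0.60. Within groups it ran from -0.38 with PBS to 0.76 with old plasma. Gabra4 and Gabrb1, whose starts are 387 bases apart, had an r of 0.029 (rho = 0.11, permutation p 0.887, adjusted 0.887, and 0.19 without 2 arrays), beside 0.83 for Gabrb1 with the more distant Gabra2. Gabra4 and Gabrd, the subunits of one extrasynaptic receptor kind, had an r of 0.16 (rho = -0.12, permutation p 0.448, adjusted 0.495, and -0.18 without 2 arrays). Within PBS it was 0.78, where replicate 6 was highest in both genes, and within the plasma groups it lay between -0.17 and -0.13.

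**Figure D3:**
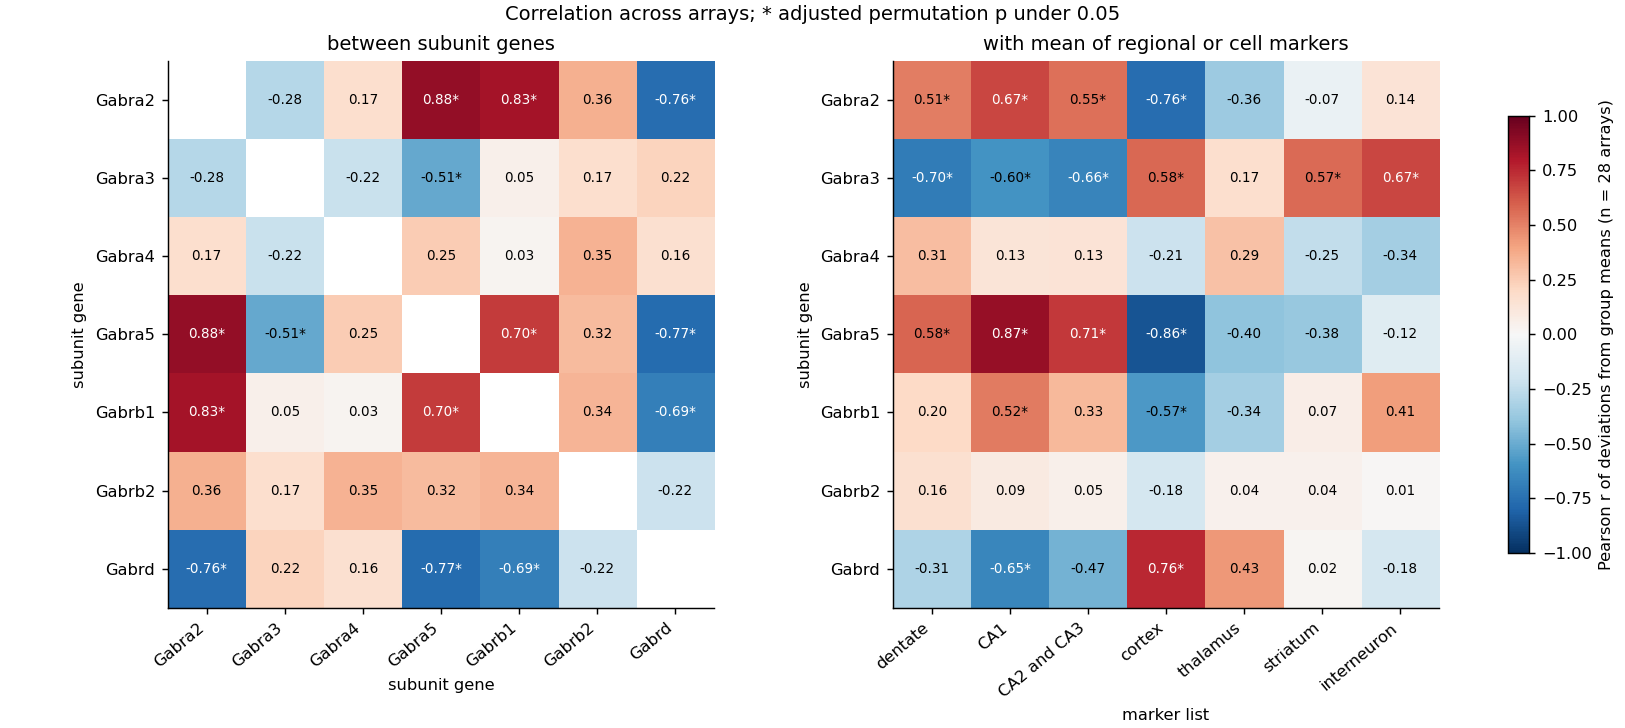
Pearson r of the deviations of 28 arrays from their group means, between the 7 subunit genes (left) and between each gene and the mean of regional or cell markers (right), with colour and number giving r. Asterisks mark adjusted permutation p under 0.05; Gabra2, Gabra5 and Gabrb1 form a positive block that Gabrd opposes, and no value of Gabra4 or Gabrb2 has an asterisk.

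The same deviations were set against means of regional and cell type markers, 7 genes by 8 lists, with permutation p adjusted over the 56 pairs. Of these pairs 19 passed, 11 positive and 8 negative, 1 of the negative ones being the pooled choroid plexus value of Gabrd that is replaced further on. The share of all tested genes that would pass with these lists was not computed, so the count is not shown to be particular to the subunits. Values without 2 arrays leave out those farthest from the median of the marker mean. Gabra5 went with CA1 pyramidal markers at r = 0.87 (rho = 0.84, permutation p 1e-05, adjusted 0.000187, and 0.85 without 2 arrays), positive within all 4 groups. Against cortex markers it was at r = -0.86 (rho = -0.86, permutation p 1e-05, adjusted 0.000187, and -0.81 without 2 arrays). It also passed with CA2 and CA3 markers at 0.71 and dentate granule markers at 0.58, the latter being -0.23 within young plasma. Gabra2 had the same signs, with r of 0.67 for CA1 and -0.76 for cortex markers, and Gabrb1 had 0.52 and -0.57. The CA1 value of Gabrb1 was 0.44 to 0.50 and did not pass without PBS replicate 6, cord plasma replicate 7, young plasma replicate 3 or old plasma replicate 3 or 5 (adjusted permutation p 0.0507 to 0.0985), and over all arrays its rho was 0.47 (adjusted permutation p 0.0557). The mirror image was Gabrd, with an r of -0.65 for CA1 markers and 0.76 for cortex markers (rho = 0.71, permutation p 2e-05, adjusted 0.00028, and 0.66 without 2 arrays). Its r with the markers of dentate granule cells, the hippocampal cells best known for δ, was -0.31 and did not pass.

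Gabra3 had its own profile. It was negative with dentate granule markers (r = -0.70, rho = -0.67, permutation p 0.00015, adjusted 0.0014, and -0.54 without 2 arrays), with CA1 markers (-0.60) and with CA2 and CA3 markers (-0.66). It was positive with cortex markers (0.58), interneuron markers (0.67) and striatum markers (0.57). Within young plasma 2 of these had the other sign, the CA1 value at 0.21 and the striatum value at -0.39. The striatum value was 0.32 without PBS replicate 1, the array with the lowest Gabra3, and the interneuron value 0.51, and neither then passed (adjusted permutation p 0.312 and 0.0659). The striatum value also missed the threshold without any 1 of 10 other arrays (0.53 to 0.58) and as rho (0.39). Gabra4 and Gabrb2 passed with no list by r, the largest being 0.34 and 0.18 in size. By rank Gabra4 passed with interneuron markers (r = -0.34, rho = -0.47, permutation p of rho 0.0164, adjusted 0.0484). For choroid plexus markers the arrays fall into separate sets, so no pooled value is given. Within each set only Gabrd, the member whose pooled value had passed, was correlated. There its log2 levels were used without removing group means, and shuffles ran over the whole set. The r was 0.0051 over the 15 lower arrays (permutation p 0.986). Over the 13 higher ones it was -0.72 (rho = -0.79, permutation p 0.00539, adjusted over both sets 0.0108). Mean Gabrd was 6.74 in the lower set and 6.56 in the higher set. Both the gene and the split were picked from these same arrays, so these p-values are a description and no independent test.

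**Figure D4:**
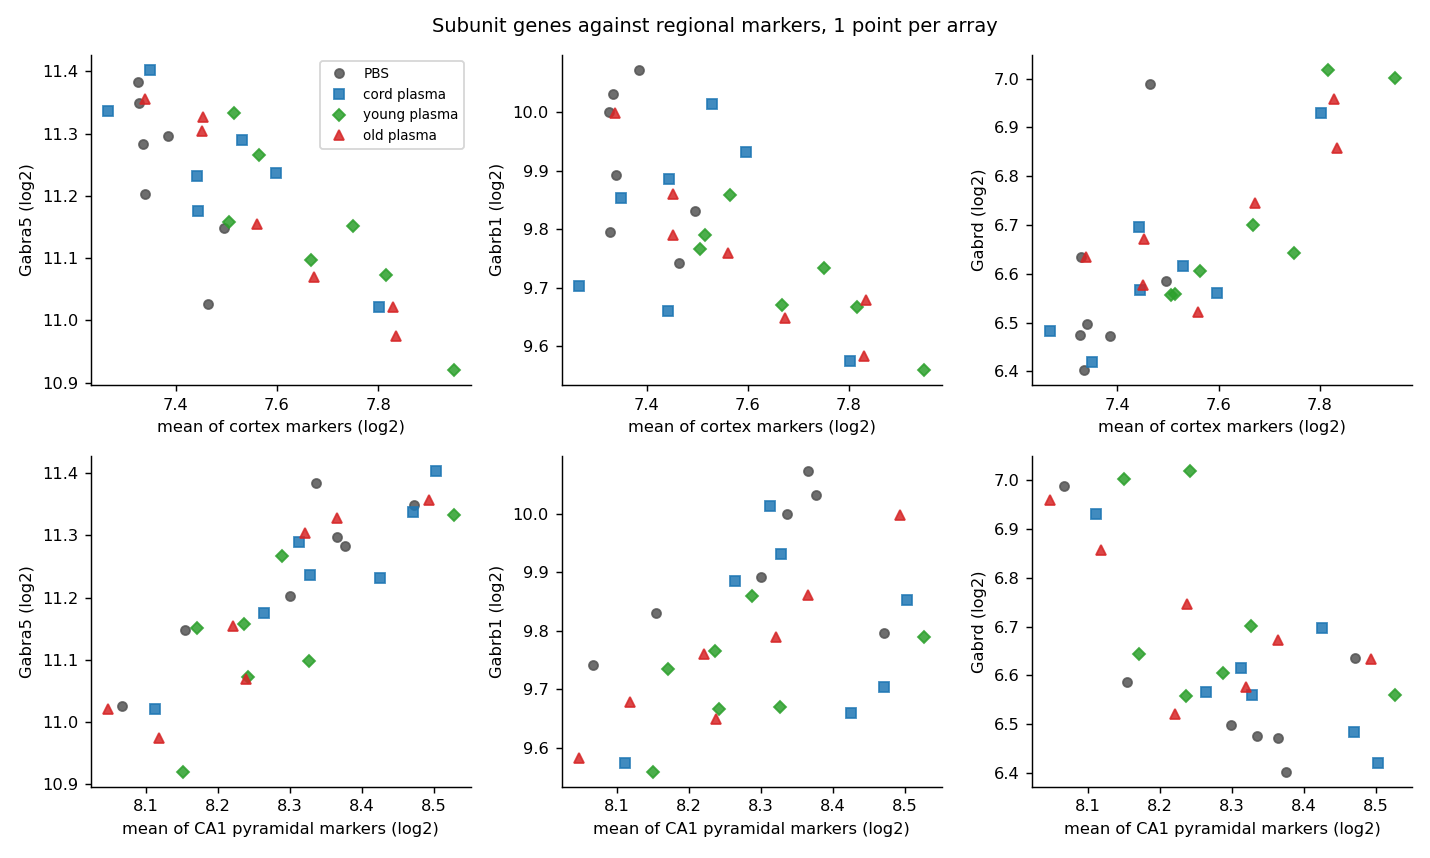
Log2 level of Gabra5, Gabrb1 and Gabrd (y axes) against the mean log2 level of 9 cortex markers (x axes, upper row) and of 7 CA1 pyramidal markers (x axes, lower row), a point for each of the 28 arrays, coloured by group. Gabra5 and Gabrb1 are lower and Gabrd is higher in arrays with more cortex marker signal, and r with cortex markers keeps this sign within each group.

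Taking the cortex marker mean out of the deviations by regression, a step chosen after the data had been seen, left 3 pairs past an adjusted p of 0.05. Gabra2 with Gabra5 was then at r = 0.68 (permutation p 0.00045, adjusted 0.00472) and Gabra2 with Gabrb1 at 0.74 (permutation p 3e-05, adjusted 0.00063). Gabra3 with Gabrb1, at 0.049 before, came to 0.57 (permutation p 0.00371, adjusted 0.0260). None of the 3 pairs of Gabrd passed: its r was -0.44 with Gabra2, -0.36 with Gabra5 and -0.47 with Gabrb1. Gabra5 with Gabrb1 was at 0.50 (adjusted permutation p 0.0758) and Gabra3 with Gabra5 at -0.029. Gabra4 with Gabrd, at 0.16 before, came to 0.51 (permutation p 0.0224, adjusted 0.0785).

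For each member the 3 genes most alike across the 28 deviations were listed by Pearson r, as a description of pattern only. Gabra2 was nearest to Nrp2, a semaphorin receptor (0.92), Slc9a4, a sodium-proton exchanger (0.91), and Dock4, an exchange factor for small GTPases (0.90). Gabra5 was nearest to Shisa6, an auxiliary protein of AMPA receptors (0.94), to Dock4 (0.93) and to Dock9 (0.93). Gabrb1 was nearest to Popdc3 (0.90), Pde11a, a cyclic nucleotide phosphodiesterase (0.87), and Cpne6, a copine (0.86). Gabra3 was nearest to Gpr123 (0.89), Copg2os2 (0.88) and Igsf21, a synaptic adhesion protein (0.87), and Gabrd to Susd2 (0.84), Rgs6, a regulator of G protein signalling (0.84), and Etv6, a transcriptional repressor (0.83). The nearest genes of the 2 steady members were less close for Gabra4 (Robo2, an axon guidance receptor, at 0.70, Tbx21 at 0.68 and Gpr12 at 0.67) than for Gabrb2 (Alg11 at 0.79, Ddx6 at 0.76 and Zfp30 at 0.76).

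The other genes of the GABA system were read from 6 lists, and none of their genes passed the adjusted test against PBS. Most genes named from them had the smallest p of their list. Over all genes, 8.74%, 11.2% and 10.8% had an unadjusted limma p under 0.05 with cord, young and old plasma. Of 12 other GABA-A subunit genes, 6 were above the filter, and 5 of these 6 were on the higher side with cord plasma, 4 with young plasma and 4 with old plasma. Gabrg3, which codes for a γ subunit, was at 0.12 with cord plasma and 0.14 with old plasma (SE 0.074 for each). Of 19 genes of the inhibitory postsynapse and receptor trafficking, 11, 7 and 10 were on the higher side with cord, young and old plasma. Unadjusted limma p was under 0.05 for 2, 1 and 3 of the 19. Zdhhc3, a palmitoyltransferase that acts on a γ subunit, had the smallest p of that list, at 0.12, 0.13 and 0.11 with cord, young and old plasma (SE 0.038 for each, limma p 0.00508, 0.00201 and 0.00711). Its adjusted p was 0.140 over the mean of the plasma groups. Nlgn2, the adhesion protein of inhibitory synapses, was at 0.0998 with cord plasma (limma p 0.0116), and Iqsec3, a guanine nucleotide exchange factor of these synapses, at 0.090 with old plasma (limma p 0.0237).

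Among 9 genes of GABA synthesis, transport and breakdown, 3, 6 and 5 were on the higher side with cord, young and old plasma. Unadjusted limma p was under 0.05 for 1 of the 9 with each plasma. Aldh5a1, which removes the semialdehyde made from GABA, was at 0.11, 0.13 and 0.14 (limma p 0.0444, 0.0265 and 0.0116), with adjusted p from 0.313 to 0.563. Gad1, which makes GABA, was at -0.038, 0.064 and 0.081. Of 5 GABA-B receptor genes, 3 were on the higher side with each plasma, while 2 auxiliary subunits lay lower: Kctd8 was at -0.14, -0.13 and -0.20 (limma p 0.0105 with old plasma) and Kctd12 at -0.21 with young plasma (limma p 0.00905, adjusted p 0.303). Of 7 chloride transport genes, 2, 2 and 3 were on the higher side, and 0, 0 and 1 had an unadjusted limma p under 0.05. Slc12a5, the extruder that keeps neuronal chloride low, was within 0.05 of PBS in all 3, and Clcn2, a chloride channel, was at 0.11 with old plasma (limma p 0.0494). Of 5 tested genes of neurosteroid and benzodiazepine-site ligands, 2, 1 and 2 were on the higher side. Unadjusted limma p was under 0.05 for 1 with cord plasma and 0 with young plasma. With old plasma it was so for 2 higher genes and 1 lower gene. With old plasma Cyp11a1, which makes pregnenolone, was at 0.19, Srd5a1, which reduces progesterone, at 0.21 and Star, which carries cholesterol into mitochondria, at -0.17 (limma p 0.0398, 0.0217 and 0.0205, adjusted p 0.363 to 0.433).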

How the data were processed

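The values used were log2 intensities deposited by the authors, for which the submitters' processing notes name RMA; no genome build is named in the sources used here. RMA normalizes arrays by quantiles, which reduces a shift shared by most genes. The authors' deposited table of unadjusted p-values, per the file headers, supplied gene symbols; its log2 group means and SDs matched recomputed ones to within 1e-08. Of 41345 rows, 23410 had a symbol, 26 of them restored from the combined name. A gene's highest-mean row was used, and genes under the 30th percentile were left out.

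Groups came from the sample titles. Genes were fitted with limma 3.58.1 in R 4.3.3 (1 mean per group, eBayes) and adjusted by Benjamini-Hochberg, with a threshold of 0.05. Correlations and permutations used numpy 2.4.6. Both steps were tested on simulated data. The number of arrays limits the precision.

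The members, gene lists and tests were chosen with earlier results of these data known. Genes named are the members, the 2 smallest p-values per pathway list and plasma, the 3 genes most alike to each member, and defining markers; some are not reported here. Slc12a5, Gad1, Fezf2 and Ntng1, and Cyp11a1 with old plasma, were named outside that rule, with their values in view. Other filters, normalizations, weights, covariates, a replicate block and leaving out each array were tried.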

Additional observations from a re-analysis of the deposited data

Results flagged for a closer look

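In each of 60 groups of 7 arrays, over the members and the 8 marker means correlated with them, the gap of the highest or lowest array to its neighbour was divided by the group's range, and 4 groups exceeded 0.568. Chance gives this for about 1 group in 20. Gabrd was at 6.99 in PBS replicate 6, with the nearest PBS array at 6.63 (gap over range 0.604). The thalamus marker mean of the same array was 8.05, with the nearest at 7.05 (0.794), and its Gabra4 was the highest of all arrays at 10.06. Without this array Gabrd differed from PBS by 0.10 with cord plasma, 0.22 with young plasma (limma p 0.0179, adjusted p 0.368) and 0.20 with old plasma, and Gabrb1 by -0.22 with young plasma (limma p 0.00524, adjusted p 0.309).

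Gabra4 was at 9.74 in cord plasma replicate 5, with the nearest array of its group at 9.85 (0.605). The interneuron marker mean was 7.41 in PBS replicate 1, with the nearest at 7.64 (0.605), and this array also had the lowest Gabra3 of all, 8.56.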

How the results depend on the processing

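No member passed the adjusted test under any of the 12 other settings or any of the 28 fits without an array, and the smallest adjusted p of a member against PBS was 0.203. Removing the cortex marker mean gave 3 correlated pairs of members in place of 7, of which 2 were among the 7, and moved Gabra4 with Gabrb1 to -0.11. The other settings gave 7 to 10 pairs, and 7 or 8 without each array. The cause was not tested. Marker pairs that passed numbered 16 to 20 without each array and 19 or 20 otherwise. Gabra2 with dentate granule markers (0.51) did not pass without PBS replicate 6, cord plasma replicate 7 or old plasma replicate 2, 6 or 7 (0.46 to 0.49), nor with CA2 and CA3 markers without PBS replicate 6 (0.46). By rho, Gabrd with CA2 and CA3 markers also passed (-0.49, adjusted permutation p 0.0420, against r of -0.47, adjusted 0.0510).

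Only differences that had not passed reversed. With the cortex marker mean as a covariate, young plasma, old plasma and the mean of the plasma groups gave 0.13, 0.092 and 0.10 for Gabra2, -0.11, -0.078 and -0.11 for Gabra3, 0.12, 0.085 and 0.095 for Gabra5, and -0.11, -0.051 and -0.075 for Gabrd. Gabrd with cord plasma was at -0.063, and Gabrb2 at 0.0019 with young plasma and 0.0099 for the mean. With dentate granule markers as covariate, cord plasma gave -0.029 for Gabra2, 0.053 for Gabra3 and -0.055 for Gabra5, and with thalamus markers -0.00020 for Gabra2 and -0.022 for Gabra5. Array weights gave -0.016 for Gabra5 with cord plasma. Gabrb2 was at 0.020 with old plasma and 0.013 for the mean after centring, and 0.0014 for the mean after renewed quantile normalization. Spearman's rho of Gabra4 with Gabrd was -0.12.

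Without each array in turn, differences from PBS with cord plasma ran from -0.017 to 0.056 for Gabra2, -0.15 to 0.015 for Gabra3, -0.035 to 0.038 for Gabra5 and -0.023 to 0.099 for Gabrd. Gabra3 ran from -0.0054 to 0.14 with old plasma and from -0.040 to 0.10 for the mean of the plasma groups. Gabrb2 ran from -0.033 to 0.0015 with young plasma, -0.036 to 0.0070 with old plasma and -0.018 to 0.016 for the mean. The r of Gabra4 ran from -0.062 to 0.21 with Gabrb1 and from -0.12 to 0.23 with Gabrd.

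With the replicate block, Gabrb1 with young plasma kept -0.19 with an adjusted limma p of 0.354, and the block changed no call. Titles number the arrays 1 to 7 in every group; over the 42 same-numbered pairs of arrays the deviations correlated at -0.19 to 0.41, and 12 exceeded 0.1. All 6 pairs of number 4 were among these 12 (0.12 to 0.41), but no other number had every pair above 0.1, so the pairing was not used. Counts over all genes moved more: centring each array gave 104 calls for old plasma against PBS beside 0, and centring gave 18, a filter at the 50th percentile 16 and array weights 11 for the mean of the plasma groups beside 3, which ran from 0 to 42 without each array. The number of arrays and the intervals given limit what differences can be seen.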
